A study of Mus musculus with 5 samples.

Results

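Mitochondrial ribosomal protein genes are the nuclear genes whose products, after import, build the ribosome inside mitochondria. They were taken by symbol alone, as every mouse gene named Mrpl or Mrps with a number and at most 1 closing letter. The gene name table held 78 such symbols, and 77 of them matched an identifier among the 27729 genes of the files, with 48 genes of the large subunit (Mrpl) and 29 of the small subunit (Mrps). Mrpl33 was not analysed here. All 77 had 10 or more expected counts in at least 1 of the 5 libraries, the filter that kept 13346 genes, so no member was lost to it.

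The mitochondrial ribosome translates the few messages of the mitochondrial genome, which encode core subunits of the respiratory chain. Its RNA comes from that genome, whereas all of its proteins come from nuclear genes, so both subunits depend on coordinated supply from the nucleus. A core shared with bacterial ribosomes is joined by proteins with no bacterial counterpart, and the ribosome sits at the inner membrane, where it inserts its hydrophobic products.

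RNA was sequenced from mouse embryonic fibroblasts (MEFs) of ICR strain embryos before and during conversion toward neuron-like cells in a defined serum-free medium. The sample names call the medium 6C and the study's text calls it 5C, DMEM/F12 with the N2 supplement, bFGF, vitamin C, 2-mercaptoethanol and the cytokine LIF. The groups were MEFs at day 0, in medium with serum, and cells after 2, 5, 10 and 14 days in the conversion medium, with no transgene in any group. The MEFs came from embryos without head and inner organs, so each library is a mixed culture. The last library was labelled day 14, while the treatment text of the same records gives day 15, and the name given by the label is used here. Each day had 1 library, so there was no replicate check, no test and no p-value, and every interval is a 95% exact interval that covers counting error only.

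Summed expected counts, which are estimated read numbers per gene, ran from 2253748 on day 2 to 3890334 on day 0. Fibroblast markers were present at every day, with 10 of 10 at 10 or more counts and a summed normalized count from 61413 to 108092. Among markers of other cells, the summed normalized count of the Schwann cell and neural crest list was 68.0 at the start and 5553 at day 14, and that of the macrophage list was 87.9 at the start and highest at day 5, with 776. Of 6 neuronal markers, Rbfox3 was at 0 at every day, and the summed level of the list lay between 95.4 and 245. The sum hides changes of single markers. Of the 4 kept, 3 were over 2-fold above day 0 on day 10 and 1 was over 2-fold below, as on days 5 and 14. Snap25 and Syp were at 0 on day 0 and passed the filter only through later days. Their place above day 0 was thus set by the filter, and the count of 3 carries no weight. Of all kept genes, 28.7% were over 2-fold above on day 10 and 22.3% below. The mitosis list stood at 656, 854, 1306, 937 and 131 in the order of the days. The part of these shifts in the results was not tested. In bulk RNA, fewer cells of a type and less RNA per cell cannot be told apart.

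Several short sequence words, known as sites of factors that act on mitochondrial genes, were found in a larger share of the members' promoters than of other promoters. Windows of 250 bases before to 50 after the start were found for 68 members in the RefSeq promoter table (GRCm38.p6), giving 74 windows beside 13134 windows of kept genes. The letters TGCGCA, the core of the site of nuclear respiratory factor 1 (NRF1), were in 29.7% of member windows, in 13.2% of the windows of kept genes and in 7.76% of all 32851 windows. CCGGAAG, the core bound by ETS proteins such as GABP, was in 33.8% of member windows against 16.5% and 8.86%. AAGATGG, the core of the YY1 motif, was in 17.6% against 6.77% and 6.34%. The GC box GGGCGG, bound by Sp factors, was in 52.7% against 61.8% and 35.7%, the E-box CACGTG in 9.46% against 9.85% and 7.15%, and TATAAA in 6.76% against 7.22% and 13.6%. Both strands were searched and the motifs were counted separately. A match is a stretch of letters, not a binding site. The median GC content of member windows was 58.8%, beside 60.7% for kept genes.

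Upstream stretches of 5 members are shown 5′ to 3′ on the strand of the gene, with the searched words in capitals on either strand. They were chosen after the values were seen. Shown are the most highly expressed member (Mrpl52), a member with a pair of NRF1 words (Mrpl45) and the member with the highest rise on day 2 (Mrps6). The others lie in gaps between start sites that point away from each other. The starts are 172 bases apart for Mrps12 with Sars2 and 29 for Mrps18c with Helq. Each stretch ends before the first annotated exon base. The ETS word of Mrpl52 lies on the other strand.
Mrpl52, chr14:54426709-54426908, plus strand, with the YY1 and then the ETS word: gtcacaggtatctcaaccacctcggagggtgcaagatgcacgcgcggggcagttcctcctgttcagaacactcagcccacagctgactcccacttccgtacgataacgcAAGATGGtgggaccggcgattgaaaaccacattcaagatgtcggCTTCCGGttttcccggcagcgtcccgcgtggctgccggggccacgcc
Mrpl45, chr11:97315516-97315715, plus strand, with the NRF1 word at both places: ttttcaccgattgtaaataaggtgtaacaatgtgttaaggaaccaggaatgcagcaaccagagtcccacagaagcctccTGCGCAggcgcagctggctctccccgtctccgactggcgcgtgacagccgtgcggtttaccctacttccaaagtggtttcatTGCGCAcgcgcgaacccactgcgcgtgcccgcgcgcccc
Mrps6, chr16:92058086-92058269, plus strand, with GC boxes, of which a pair overlaps by a base: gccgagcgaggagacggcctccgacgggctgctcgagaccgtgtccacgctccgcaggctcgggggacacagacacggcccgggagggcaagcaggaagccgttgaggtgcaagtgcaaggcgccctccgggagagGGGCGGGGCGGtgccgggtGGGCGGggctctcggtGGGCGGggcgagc
Mrps12, chr7:28741822-28741991, minus strand, the stretch shared with Sars2, with a GC box on the other strand: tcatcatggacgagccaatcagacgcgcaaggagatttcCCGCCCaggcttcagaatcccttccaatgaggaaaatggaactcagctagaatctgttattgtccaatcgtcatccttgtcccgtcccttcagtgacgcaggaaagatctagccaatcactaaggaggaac
Mrps18c, chr5:100798599-100798626, plus strand, the stretch shared with Helq, with the ETS word on the other strand: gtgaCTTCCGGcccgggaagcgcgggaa

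As a group the members stayed near their starting level on day 2, fell by day 5, reached their lowest level on day 10 and had regained part of it by day 14. The regain was not seen in their median against other genes of equal length, a comparison described below. Levels are compared as normalized expected counts, scaled to the libraries' effective sizes, and changes are log2 of the normalized count plus 1. The median change of the 77 members from day 0 was -0.09, -1.13, -1.88 and -1.49 for days 2, 5, 10 and 14. Over the 13346 kept genes, the medians were -0.03, 0.05, 0.14 and 0.07. On day 10 the whole membership ran from -3.15 to -0.03, so no member was above its day 0 level, whereas the middle 50% of kept genes ran from -0.86 to 1.17.

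Counts past 2-fold followed the same course. On day 2, 6 members were over 2-fold below day 0 (background 13.1%) and 2 were over 2-fold above it (background 15.2%). On day 5, 49 of 77 were over 2-fold below (13.6%) and 0 above (20.2%). On day 10, 74 were over 2-fold below (22.3%) and 0 above (28.7%). On day 14, 62 were below (19.9%) and 0 above (24.5%). On TPM values, 10, 30 and 20 members were over 2-fold below on days 5, 10 and 14 and the day 10 median was -0.75, while the median of all kept genes stood at 1.09. On library totals, 24 were over 2-fold below on day 5. The background is the share of all kept genes past the same limit in the same direction. Any fall at all was seen for 48, 75, 77 and 76 members in the order of the days, beside 51.3%, 47.8%, 46.2% and 47.1% of kept genes. The counting interval lay wholly below day 0 for 27, 73, 76 and 76 members, and wholly above it for 22, 1, 0 and 0. Such intervals were not counted over all kept genes, so these counts have no background.

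**Figure D1:**
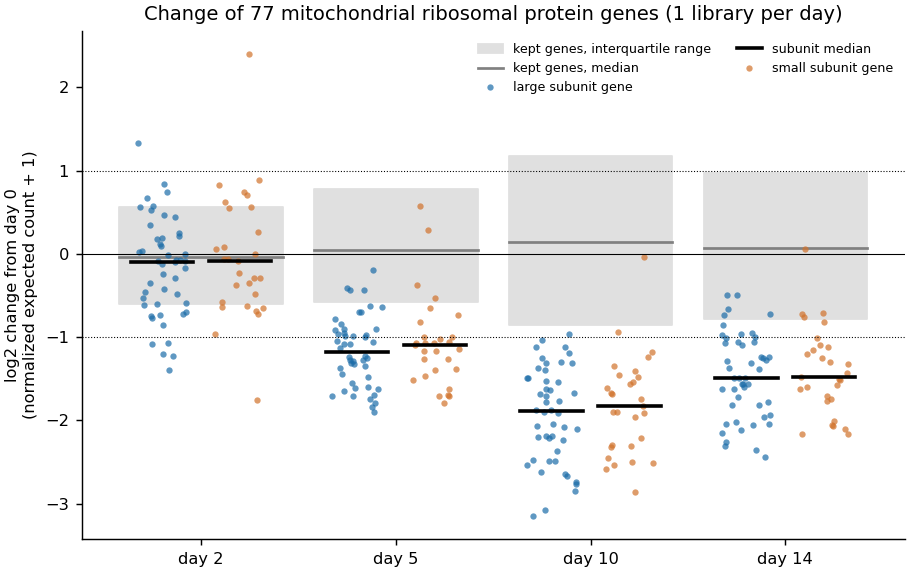
Each point is 1 gene, with the log2 change of its normalized expected count (plus 1) from day 0 on the vertical axis, for the 48 large and 29 small subunit genes on days 2, 5, 10 and 14. Black bars are the subunit medians, grey boxes the middle 50% of the 13346 kept genes with their median as a grey line, and dotted lines mark 2-fold. From day 5 on nearly all points lie below the grey median, and on day 10 all 77 lie below 0.

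The steps between neighbouring days showed when the fall took place. From day 2 to day 5 the members' median step was -0.99, and 38 of them dropped over 2-fold (background 12.5%). From day 5 to day 10 the median step was -0.75, with 77 of 77 lower (background 50.7%) and 18 over 2-fold lower (background 9.50%). From day 10 to day 14 the median step was 0.47, and 74 of 77 were higher (background 51.6%), but only Mrpl36, a small core protein of the large subunit, passed 2-fold upward (background 4.73%) and 0 downward (background 8.33%). In that last step the counting interval lay above 0 for 47 members, included it for 30 and lay below it for 0. Short genes as a whole rose in this step too. The members' median difference from genes of equal length was -0.76 on day 10 and -0.79 on day 14, so on that measure they did not regain. The highest level of the course was that of day 0 for 47 members, that of day 2 for 29 and that of day 5 for Mrps2. The lowest level fell on day 10 for 71 members. It fell on day 2 for Mrpl44, Mrps2 and Mrps22 and on day 14 for Mrpl39, Mrps10 and Mrps30. The counts by interval and by highest or lowest day were not made over all kept genes and have no background.

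The large and the small subunit had nearly the same course. The 48 large subunit genes had median changes of -0.09, -1.18, -1.89 and -1.49 on days 2, 5, 10 and 14, and the 29 small subunit genes had -0.09, -1.09, -1.83 and -1.48. On day 10, 47 of 48 large and 27 of 29 small subunit genes were over 2-fold below day 0. Mrps18a and Mrps30 carry small subunit names but sit in the large subunit, and Mrps36 is now placed in the alpha-ketoglutarate dehydrogenase complex. Moved accordingly, the medians on day 10 were -1.89 for 50 large and -1.86 for 26 small subunit genes.

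Summed counts gave a similar course for both subunits, with small shifts in their ratio. Together the members held 23747, 13858, 12024, 8328 and 9212 expected counts from the first to the last library. This was 0.610%, 0.615%, 0.354%, 0.214% and 0.274% of each library. On day 2 the small subunit sum was 0.21 above day 0 on the log2 scale (interval 0.16 to 0.26), while the large subunit sum was at 0.02 (interval -0.01 to 0.06). The ratio of large to small subunit counts was 1.85 (1.80 to 1.90) on day 0 and 1.63 (1.57 to 1.68) on day 2. It was then 1.72 (1.66 to 1.79) on day 5, also wholly below the interval of day 0. For day 10 it was 1.75 (1.67 to 1.83) and for day 14 it was 1.80 (1.73 to 1.88), and both intervals overlap that of day 0. On day 2, Mrps6 alone added 1327 normalized counts, beside 251 on day 0, to a small subunit total that went from 8238 to 9549.

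**Figure D2:**
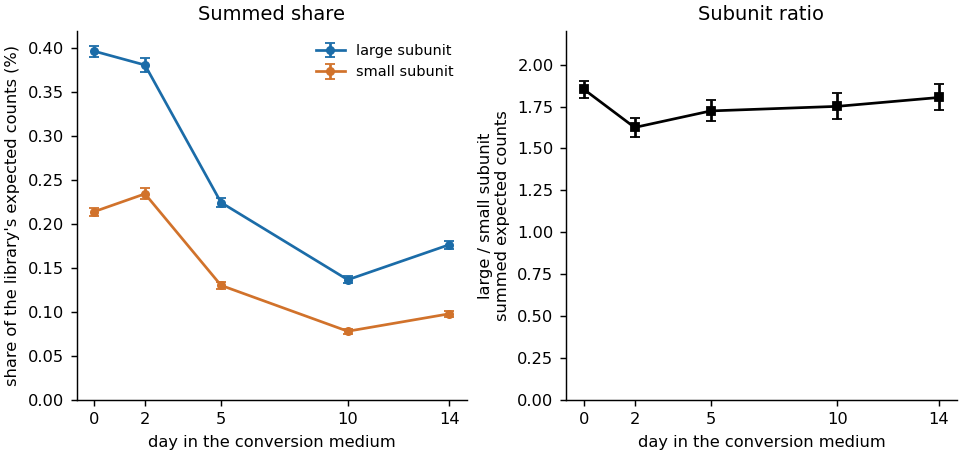
Left, the share of each library's expected counts, in percent, held by the large (blue) and small (orange) subunit genes by day, and right, the ratio of their summed expected counts. Bars are 95% exact intervals for counting error in 1 library per day. Both shares are lowest on day 10, and the ratio runs only from 1.63 to 1.85.

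Genes with a bacterial homolog and genes particular to mitochondria fell in both subunits. On day 10 the 29 large subunit genes with a bacterial homolog had a median change of -1.90, with 29 of 29 over 2-fold below day 0, and the 19 without one had -1.69, with 18 of 19. In the small subunit the 17 with a bacterial homolog had -2.21, with 16 of 17, and the 9 without one had -1.56, with 8 of 9. By place, the stalk that receives translation factors (Mrpl10, Mrpl11, Mrpl12) had a median of -2.19. The proteins around the exit tunnel had -1.77 over 7 genes, and those of the central protuberance -1.58 over 6. Part of this order changed against other genes of equal length, a comparison described below. There the large subunit stood at -0.93 with a bacterial homolog and -1.32 without one, and the small subunit at -0.75 and -0.49. The stalk stood at -1.75, the exit tunnel at -0.34 and the central protuberance at -0.50.

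Mrpl52, a mitochondria-specific protein of the large subunit at chr14:54426909-54429756, had the highest length-scaled level of the family at each day but day 10. By TPM, transcripts scaled for length and library, it stood at 776, 1134, 402, 195 and 253 from the first to the last library, the order used for every set of 5 values that follows. Its normalized counts were 831, 1396, 271, 97.9 and 153, and the change on day 10 was -3.07 (-3.36 to -2.82), an 8.42-fold fall. The course rose first and then fell steeply, and the later levels did not come back to that of day 0. Mrpl54, also mitochondria-specific, had the deepest fall of all members. Its normalized counts were 514, 595, 136, 57.1 and 103, which gave -3.15 (-3.53 to -2.83) on day 10. Mrpl34, a protein of the bacterial core, went from 227 and 203 to 69.1, 30.7 and 51.8, at -2.85 on day 10.

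The stalk genes did not fall alike. Mrpl12, the stalk protein that recruits translation factors, had normalized counts of 883, 1000, 273, 129 and 214 and a change of -2.77 (-3.01 to -2.54) on day 10. Mrpl11, at the base of the stalk, had 360, 430, 131, 78.1 and 91.8, at -2.19. Mrpl10, which anchors the stalk, had 373, 351, 242, 163 and 187, at -1.19 (-1.44 to -0.96), and on TPM values its day 10 change was 0.02. Its interval does not meet those of the other stalk genes.

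At the exit tunnel the order was again broad. Mrpl45, which ties the ribosome to the inner membrane, had normalized counts of 395, 239, 125, 75.7 and 95.3, at -2.37 on day 10. Mrpl17 had 471, 704, 355, 143 and 190, at -1.71, and was the member with the highest TPM on day 10, 211. Mrpl44, a relative of RNase III, had 99.9, 47.0, 57.7, 50.7 and 59.9, with its lowest level already on day 2 and a day 10 change of -0.97 (-1.44 to -0.53). With 26 expected counts on day 2, Mrpl44 had one of the thinnest records of the family.

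The large subunit genes that fell least were Mrpl44, Mrpl41 and Mrpl3. Mrpl41 had normalized counts of 148, 152, 95.4, 72.1 and 105, at -1.03 (-1.42 to -0.67) on day 10. Mrpl3, a core protein near the peptidyl transferase centre, had 244, 159, 130, 112 and 148, at -1.12 (-1.42 to -0.83). On TPM values, where the median of all kept genes itself rose by 1.09 on day 10, the changes of these genes turned to 0.18, 0.10 and 0.38 for Mrpl44, Mrpl41 and Mrpl3, still below that median. Mrpl51, one of the most highly expressed, had 719, 681, 282, 127 and 217, at -2.49. Mrpl58, a peptidyl-tRNA hydrolase that became part of the ribosome, had 272, 371, 109, 93.6 and 111, at -1.53.

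Mammals have 3 genes for the bacterial protein S18, and all 3 fell. Mrps18b had normalized counts of 605, 311, 174, 82.2 and 134 and the deepest fall of the small subunit names, -2.86 (-3.18 to -2.59) on day 10. Mrps18c had 277, 179, 105, 45.4 and 61.2, at -2.58 (-3.02 to -2.20). Mrps18a, whose product lies in the large subunit, had 375, 360, 143, 75.0 and 121, at -2.31 (-2.65 to -2.01). Mrps18b and Mrps18c were already lower on day 2, at -0.96 and -0.62, while Mrps18a was at -0.06. Their intervals on day 10 overlap.

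Among the other small subunit genes, several rose before they fell. Mrps21, the most highly expressed by TPM (579 on day 0), had normalized counts of 580, 855, 203, 99.2 and 138, at -2.53 on day 10. Mrps16 had 344, 637, 143, 60.0 and 84.9, at 0.88 on day 2 and -2.50 on day 10. Mrps15 had 524, 628, 169, 90.7 and 124, at -2.52. Mrps12, a decoding centre protein, had 242, 428, 109, 64.3 and 84.9, at 0.82 on day 2 and -1.89 on day 10. In each of these 4, days 5, 10 and 14 all lie below day 0 and day 2 above it.

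Mrps6 and Mrpl14 were the genes over 2-fold above day 0 on day 2. Mrps6 had normalized counts of 251, 1327, 373, 106 and 148, a change of 2.40 (2.19 to 2.61) on day 2 and of -1.24 on day 10. It shares 159 exon bases on the same strand with Slc5a3, an inositol transporter gene, whose expected counts were 89.3, 371, 656, 449 and 171, so reads between them could be assigned either way. Mrpl14 had 154, 389, 135, 62.1 and 109, at 1.33 (1.03 to 1.64) on day 2 and -1.30 on day 10.

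Mrps2, a core protein on the solvent side of the small subunit, was the exception to the later fall. Its normalized counts were 84.1, 56.1, 103, 82.1 and 87.6, and the interval included day 0 on each later day, with -0.03 (-0.45 to 0.39) on day 10. This depended on the scaling, since its day 10 change was 0.43 on library totals and 1.07, over 2-fold above day 0, on TPM values. It had between 31 and 118 expected counts per library, so a change smaller than about these intervals was not detectable at this depth. Mrps31 was the other small subunit gene not past 2-fold on day 10, at -0.93 (-1.45 to -0.46), and with Mrpl44 and Mrps2 it completes the 3 members not past that limit. Mrps31 never reached 100 expected counts in any library. Mrps36 was at -1.35 and Mrps30 at -1.74 on day 10.

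**Figure D3:**
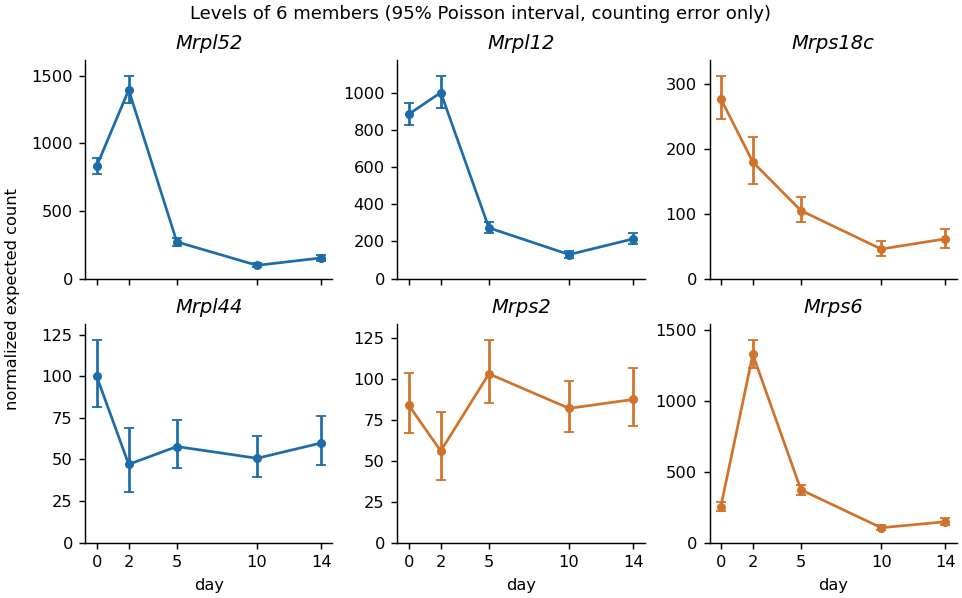
Normalized expected counts (vertical axes, each from 0) by day for Mrpl52, Mrpl12, Mrps18c, Mrpl44, Mrps2 and Mrps6, 1 library per day, with 95% Poisson intervals for counting error. Mrpl52 and Mrps6 peak on day 2, at 1396 and 1327, Mrpl12 and Mrps18c are lowest on day 10, at 129 and 45.4, and Mrps2 ends close to its start, at 87.6 beside 84.1.

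Overlapping genes limit some values, since the library kit does not mark strand. In the annotation, 29 members share exon bases with another gene of the files and 48 share none. Mrps25, with normalized counts of 318, 520, 219, 140 and 193 and a change of -1.18 on day 10, shares 4590 exon bases with Nr2c2 on the opposite strand. The expected counts of Nr2c2 were 5.12, 14.3, 8.75, 189 and 25.3, highest on day 10. On that day the deposited length of Mrps25 was 2.65 times its day 0 length. Mrps34 shares 63.4% of its exon bases with Mapk8ip3, and Mrpl53 shares 88.0% with Gm42688. Mrps11 and Mrpl46 are members that overlap each other by 173 bases. The 48 members with no overlap had a median change of -2.06 on day 10, with 46 of 48 over 2-fold below day 0.

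The change of a gene went with its length in these libraries, and the members are short. The mean deposited length of the members ran from 412 to 3715 bases with a median of 949, beside 2525 for kept genes. Across kept genes, the rank correlation of the day 10 change with length was 0.44 over 13346 genes, and across the 77 members it was 0.23, both descriptions over genes of the same libraries. The kept genes were put in 20 classes of equal size by length. On day 10, the median change of the other genes was -1.75 in the shortest class and 1.13 in the longest.

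Against other genes of their own length the members were lower on each later day. From day 5 on the difference was smaller than their change from day 0, and on day 2 it was larger. The median difference from the class was -0.25, -0.61, -0.76 and -0.79 for days 2, 5, 10 and 14. Below their class median were 56, 65, 67 and 67 members, beside 50.0%, 50.1%, 50.2% and 50.2% of kept genes. For the large subunit the differences were -0.26, -0.64, -0.94 and -0.83, and for the small subunit -0.25, -0.53, -0.67 and -0.72.

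How far members stood from their class depended on the class. In the shortest class, up to 803 bases, 25 members had a median of -1.90 on day 10 beside -1.75 for the other genes, and 16 of the 25 were below it. In the next class, up to 1042 bases, 18 members had -1.99 beside -1.15, and 18 of 18 were below. In the third, up to 1243 bases, 11 members had -1.68 beside -1.02, and 11 of 11 were below. The members farthest below their class were all longer than the median gene of the family. Mrpl35, the longest at 3715 bases, was at -3.30, Mrpl1 at -2.88, Mrpl45 at -2.57, Mrpl57 at -2.51 and Mrpl11 at -2.43, while Mrpl3, the longest but for Mrpl35, was at -1.62. Above their class on day 10 were Mrpl14, Mrpl17, Mrpl27, Mrpl41, Mrpl48, Mrpl53, Mrpl58, Mrps2, Mrps33 and Mrps36. Of these, all but Mrps2 were in the shortest class, and all 10 were below day 0.

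**Figure D4:**
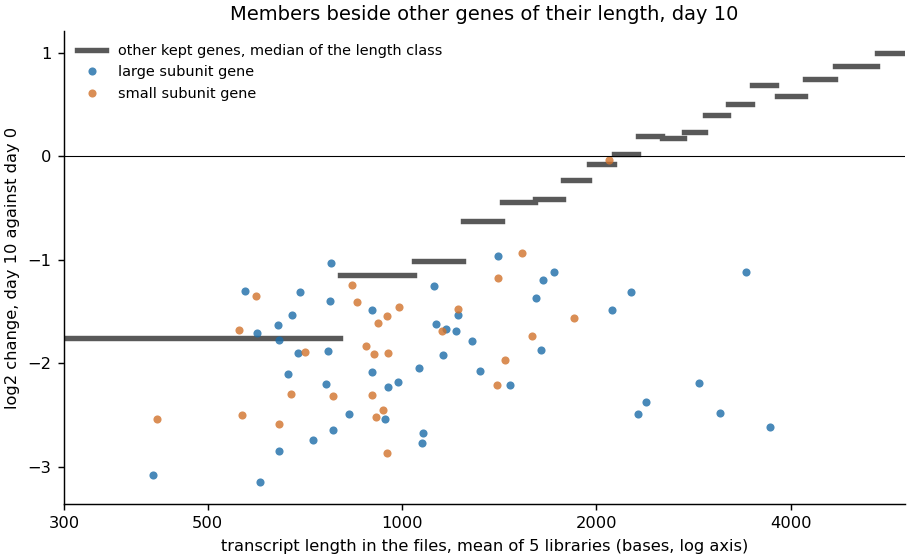
Log2 change of each member from day 0 to day 10 (vertical axis) against its mean deposited length in bases (log axis), with grey steps for the median of other kept genes in each length class. The steps climb from -1.75 with length, while members stay between -3.15 and -0.03, with Mrpl35 the farthest under its step, at -3.30 from it, and the similarly long Mrpl3 at -1.62.

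The starting level also went with the fall. Across the 77 members, the rank correlation of the change with the log2 normalized count on day 0 was 0.26, -0.37, -0.54 and -0.50 for days 2, 5, 10 and 14. The day 0 count is part of both measures, so these are descriptions over 77 genes of the same libraries. The mean TPM per member was 126, 125, 89.8, 64.1 and 75.3.

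Changes of members with and without the searched promoter words are set side by side, with no test. For the 38 members with an NRF1 or ETS word in a window, the median change on day 10 was -1.85, and for the 30 with neither it was -1.82. The 13 with the YY1 word had -2.10 and the 55 without it -1.69. Gaps were also seen for the GC box, at -1.90 with and -1.63 without, and for the E-box, at -2.23 in 5 members and -1.74 without. Against genes of equal length, members with an NRF1 or ETS word stood at -0.71 and the others at -0.83. For the YY1 word this was -0.93 with and -0.68 without. On day 14 that order turned, at -0.76 with and -0.79 without. The genes of the factors took different courses. Myc, a growth regulator that binds the E-box, had normalized counts of 502, 77.8, 97.1, 108 and 170, at -2.21 on day 10. Nrf1 had 157, 97.6, 71.8, 80.0 and 85.8, at -0.97, and Gabpa, whose exons overlap Atp5j on the other strand, had 94.0, 81.4, 138, 250 and 178, at 1.40. Of 9 kept regulators of mitochondrial gene programmes, 2 were over 2-fold below day 0 on day 10 and 3 above, beside 22.3% and 28.7% of kept genes.

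Among the members, 23 were counted as starting back to back with a gene of the files that is not a member. The members Mrps11 and Mrpl46 were not counted, though the same stretch of 29 bases lies upstream of both, on opposite strands. On day 10, 6 of the 23 counted neighbours were over 2-fold below day 0, 3 were over 2-fold above it and 14 lay between. Of kept genes, 22.3% were over 2-fold below and 28.7% above, so the share of neighbours below lies near the background. Some neighbours fell short of the filter, such as Lrrc46 among those below, with at most 3 counts. Among those above, 2610507I01Rik had at most 8. Mrpl32 and the proteasome gene Psma2 start 75 bases apart, and Psma2 was at -1.90 on day 10. Mrpl49 starts 59 bases from Fau, which encodes a ribosomal protein fused to a ubiquitin-like one and was at -3.76, and the first bases of Mrpl36 overlap those of the complex I gene Ndufs6, at -2.58. Mrps18b starts 45 bases from Ppp1r10, at -1.30. By contrast Ncapd2, a condensin gene 100 bases from Mrpl51, was at 0.84 while Mrpl51 was at -2.49, and Helq, 29 bases from Mrps18c, was at -0.30 while Mrps18c was at -2.58.

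The 5 mitochondrial ribosomal proteins with other symbols fell too, with 5 of 5 over 2-fold below day 0 on day 10. Chchd1, a small subunit protein, had normalized counts of 482, 422, 130, 57.1 and 93.9, at -3.05 (-3.44 to -2.73). Gadd45gip1, of the large subunit, was at -2.72, Aurkaip1 at -1.98, the GTP-binding Dap3 at -1.53 and the pentatricopeptide protein Ptcd3 at -1.21. Set against their length classes the 5 had a median of -1.30, with 5 of 5 below.

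Other genes of mitochondrial translation were read on the same limits, beside the 22.3% of kept genes that were over 2-fold below on day 10 and the 28.7% above. On day 10, 4 of 13 translation factors were over 2-fold below day 0 and 0 above, with Tufm, the elongation factor that brings in transfer RNA, at -2.10 and the initiation factor Mtif2 at 0.81. Of 22 genes for ribosome assembly and RNA modification, 10 were below and 2 above. In that list the assembly factor Mpv17l2 was at -2.48, and Mterf4, a partner in RNA methylation that overlaps Sned1 on the other strand, was at 2.69, from 117 to 762 normalized counts. Of 17 aminoacyl-tRNA synthetases, 6 were below and 0 above. Lars2, for leucine, had expected counts of 2589, 30553, 724, 843 and 827, so that it was at 4.43 on day 2 and -2.09 on day 10, and Iars2, for isoleucine, was at 0.29. The whole day 2 library held 2253748 expected counts. Whether the reads given to Lars2 came from its own transcript was not tested, so its values are uncertain as levels of that gene. Of 14 kept genes for mitochondrial DNA transcription and RNA stability, 6 were below and 0 above, from Slirp at -2.71 to Pnpt1 at 0.43. The shares below were 30.8% of the translation factors and 35.3% of the synthetases, above the 22.3% of kept genes but on short lists. The difference between these lists and the members was not tested.

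Because these lists hold longer genes, their distance from genes of equal length is the closer comparison. On day 10 the median difference from the length class was -0.50 for the translation factors, -0.65 for the assembly genes, -0.58 for the synthetases and -0.01 for the transcription genes, beside -0.76 for the members. Below their class median on day 10 were 10 of 13 translation factors, 17 of 22 assembly genes, 16 of 17 synthetases and 8 of 14 transcription genes. These stand beside 67 of 77 members and 50.2% of kept genes. The order of the medians was not the same on other days. On day 5 the synthetases were at -0.66 and the members at -0.61, and the transcription genes were at -0.28 on day 5 and -0.42 on day 14. The 36 nuclear genes of complex I, with a median length of 685 bases, had a median change of -2.09 on day 10, with 35 of 36 over 2-fold below day 0. Against their length classes they stood at -0.49, with 29 of 36 below. A short list of 5 cytosolic ribosomal protein genes stood lower than the members on day 10. Its median change was -2.63, and its median difference from the length class was -1.47, with 5 of 5 below, beside 50.2% of kept genes. A position below genes of equal length was thus not particular to the members.

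**Figure D5:**
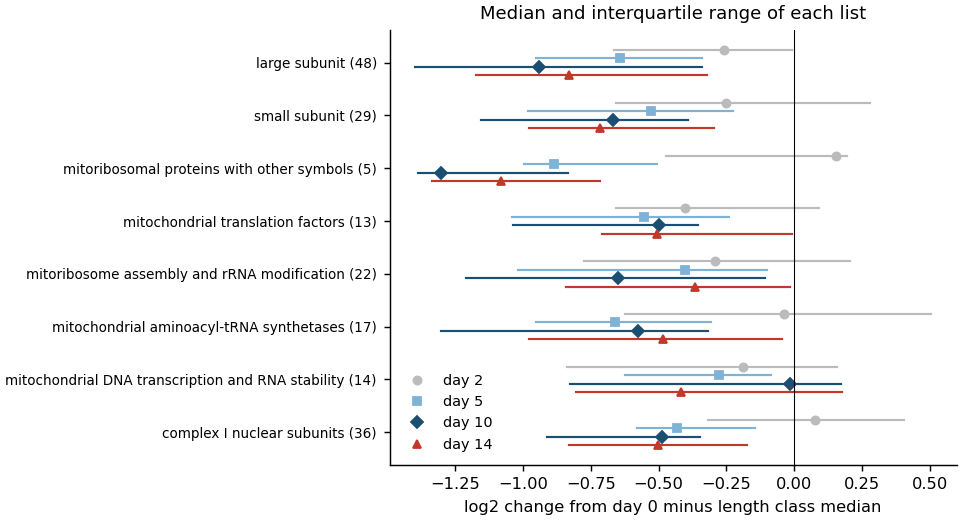
Median (symbol) and middle 50% (line) of the log2 change from day 0 minus the median of other genes of the same length class, for both subunits and 6 further lists, with the number of genes in parentheses and 1 symbol per day. On day 10 the large subunit stands at -0.94, the small subunit at -0.67, complex I at -0.49 and the transcription genes at -0.01.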

How the data were processed

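TruSeq libraries of total RNA from 5 time points were sequenced. Per the labels, the submitters' processing notes name Bowtie, RSEM and the mm10 build. The deposited tables give, per gene, a length, RSEM's expected count, TPM and FPKM, all made by the authors. Expected counts and TPM were used, and FPKM was not. Counts were scaled by TMM (edgeR 4.0.16, R 4.3.3) to effective library sizes centred on their geometric mean, and changes are log2 of the normalized count plus 1. The filter asked for at least 10 expected counts in any library. Identifiers were given symbols from a gene name table, and exons and starts came from GENCODE M21.

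Intervals are exact binomial (Clopper-Pearson, SciPy 1.17.1) on rounded counts, and they cover counting error only. A count of 0 allows up to 3 counts, or 0.771 to 1.33 CPM across the 5 libraries. With 1 library per day there was no test, and called means past 2-fold. Named members were, per subunit, the 4 with the deepest fall on day 10, the 3 with the smallest and the 3 with the highest mean TPM, all reaching 100 expected counts somewhere, those over 2-fold above day 0, and a set by role. From each list of mitochondrial translation, assembly, synthetase, transcription and regulator genes, the genes with the lowest and the highest change on day 10 were named among those reaching 100 expected counts, along with the 5 ribosomal proteins with other symbols. Nrf1, the overlapping and the back-to-back genes and the members named only beside a count, a length class or a lowest day were named after their values were seen. The members and lists were chosen with earlier results of these data known. On simulated counts for day 10 against day 0, 196 of 200 genes changed 4-fold were called in the right direction, and 1.61% of unchanged genes were called. The simulation held counting error only, and its changed genes were drawn from those above a set mean level. It held no variation between cultures, so it does not give the rate of false calls in these libraries. Alternatives were DESeq2 1.42.0 size factors, library totals, TPM, another pseudocount, other filters, a 4-fold limit and other length classes.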

Additional observations from a re-analysis of the deposited data

How the results depend on the processing

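No paired analysis was possible because each day has 1 library, and no replicate was left out for the same reason. Of 170 values recomputed for 23 summary results, 140 were labelled as keeping their size. The other filters did not alter the members' median changes, so part of this was fixed in advance. The label was also loose for counts. It was given to 43 members over 2-fold below on day 14 on library totals, beside 62. The 4 median changes, the 4 differences from the length class and the 3 steps kept their sign under every alternative run. The difference between the subunits' medians lay between -0.11 and 0.18 on every day and under every alternative run.

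Scaling moved the members most. Library totals without factors put their median at -0.76, -1.41 and -1.13 on days 5, 10 and 14, with 24 genes over 2-fold below day 0 on day 5 and steps of -0.53 (day 2 to 5) and 0.35 (day 10 to 14). On TPM values the medians were -0.38, -0.44, -0.75 and -0.62 on days 2, 5, 10 and 14, with 10, 30 and 20 genes over 2-fold below on days 5, 10 and 14, 1 above on days 5 and 10 each, and steps of -0.11, -0.29 and 0.21. Library totals put the median of all kept genes at -0.11, 0.41, 0.60 and 0.42 on days 2, 5, 10 and 14, and TPM at -0.20, 0.61, 1.09 and 0.78. On days 5, 10 and 14, relative to that median the members stood on TPM at -1.05, -1.84 and -1.41, beside -1.18, -2.02 and -1.56 as reported. Among named members with an interval clear of day 0, TPM turned the sign on day 2 (Mrpl54 -0.019, Mrpl12 -0.22, Mrpl17 -0.030, Mrpl11 -0.0084), on day 5 (Mrpl41 0.057, Mrpl17 0.45, Mrpl10 0.24), on day 10 (Mrpl44 0.18, Mrpl41 0.10, Mrpl3 0.38, Mrpl10 0.024) and on day 14 (Mrpl44 0.13, Mrpl41 0.36, Mrpl3 0.37, Mrps6 0.10, Mrpl14 0.27). Of those whose interval included day 0, Mrpl41 turned on day 2, Mrpl14 on day 5 and Mrps2 on day 10, to -0.21, 0.35 and 1.07 on TPM and to -0.049, 0.18 and 0.43 on library totals.

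A 4-fold limit left 0, 0, 32 and 16 members below on days 2, 5, 10 and 14 and 1 above on day 2. The share of all kept genes past 4-fold was not counted. Without a filter the median change of the typical length class is 0, and the median difference from the class becomes the change itself, -0.091, -1.13, -1.88 and -1.49. On day 5 that difference was -0.48 with 10 counts asked of every library and -0.52 with level classes added. Chosen after the data were seen, the 48 members that share no exon bases had a median of -2.06 on day 10, with 46 over 2-fold below.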
